A study of Mus musculus with 2 samples.

Results

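Markers of the connective tissue, smooth muscle and vessels that lie beneath the intestinal epithelium were examined in RNA sequencing of purified mouse villi. The set held 34 genes, assigned by textbook cell type to fibroblasts and their matrix (15 genes), smooth muscle (8), blood endothelium (10) and lymphatic endothelium (1), and 31 of them had a row among the 20722 gene symbols of the deposited table. Pdgfra, Pdgfrb and Pecam1 were not analysed here. The members were picked by name, and where a symbol had several transcripts the one with the highest mean was taken.

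The series held 2 libraries of small-intestinal villi from mice labelled as strain C57BL/6. The control carried Rosa26-CreERT2, a Cre recombinase activated by tamoxifen and expressed from a locus active in nearly all cell types, on a Cdkn2a-/- background. The other library was labelled with the same 2 alleles and with Ring1a-/- Ring1bf/f, that is, constitutive loss of Ring1 and a conditional allele of Rnf2, the paired ubiquitin ligases of Polycomb repressive complex 1. It is called dKO-labelled here, because the transcript counts of Ring1 (10 and 10 reads, control first) and Rnf2 (59 and 82 reads) do not show the deletions. Reads per exon were not examined, so these whole-transcript counts do not decide whether the deletions occurred. Both libraries came from mice given 3 tamoxifen injections and killed 6 days later. Since both groups lack Cdkn2a and carry the inducible Cre, neither was an unmodified wild type, and the Cre is not restricted to the epithelium. The labels used here give no age, sex or number of animals pooled.

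Each genotype had 1 library, so no value below has a replicate check and no test between genotypes was possible. The control library held 775827 recovered reads and the dKO-labelled library 1058196. Ratios are dKO-labelled over control, from recovered reads scaled by the authors' size factors (dKO-labelled over control 1.109), with exact 95% Clopper-Pearson intervals that cover counting error only. Epithelial markers were abundant in both samples: 10 such markers gave 9049 and 12010 reads, a ratio of 1.20 (1.16 to 1.23). The libraries differed in sex-linked genes, with Xist at 80 and 1 reads and Ddx3y at 0 and 131, so sex and genotype cannot be told apart in any ratio below.

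A villus is a finger of epithelium around a core called the lamina propria. In the core, fibroblasts lay down collagen and send signals to the epithelium, strands of smooth muscle shorten the villus, a capillary network lies just under the epithelium, and a central lymphatic vessel, the lacteal, carries absorbed fat away. Preparations of isolated villi or epithelium carry over varying amounts of this core. In bulk RNA, a difference in the number of cells of a type and a difference in RNA per cell cannot be told apart.

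Transcripts of fibroblasts and smooth muscle were several-fold higher in the dKO-labelled library, whereas the vascular markers were split. Fibroblast and matrix members had 52 control and 347 dKO-labelled reads, a ratio of 6.02 (4.48 to 8.21). Smooth muscle members had 47 and 244 reads, a ratio of 4.68 (3.41 to 6.54). Blood endothelial members had 68 and 176 reads, a ratio of 2.33 (1.75 to 3.13), but 140 of the 176 reads came from Aqp1 and 48 of the 68 from Tie1, and these 2 genes lay in opposite directions. The lymphatic marker Lyve1 had 1 and 19 reads.

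Of the 28 members with any read, 18 had a counting interval wholly above a ratio of 1, against 27.9% of all genes with a read, and 1 had an interval wholly below 1, against 5.85%. By size, 10 members reached a mean normalised count of 20. Of these, 8 were at least 2-fold higher on the log2(value + 1) scale, against 26.2% of all 6001 genes at that level, and 1 was at least 2-fold lower, against 4.18%. The median log2 ratio of the 10 was 2.47, and that of the 6001 was 0.51. With the latter set to 0, 14 of the 28 members had an interval above 1, against 14.2% of all genes with a read, and 2 (Tie1 and Tek) below, against 13.2%. Over the 24 members with at least 5 reads in all the median ratio was 5.30, and over all 10456 such genes it was 1.55, a control count of 0 being raised to the floor of 3 reads. These shares describe 2 libraries, and the size cut favours members that were high in 1 of them. Of the 9 members with no control read, 3 had at least 5 reads in the dKO-labelled library, against 4.98% of all genes with no control read.

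**Figure D1:**
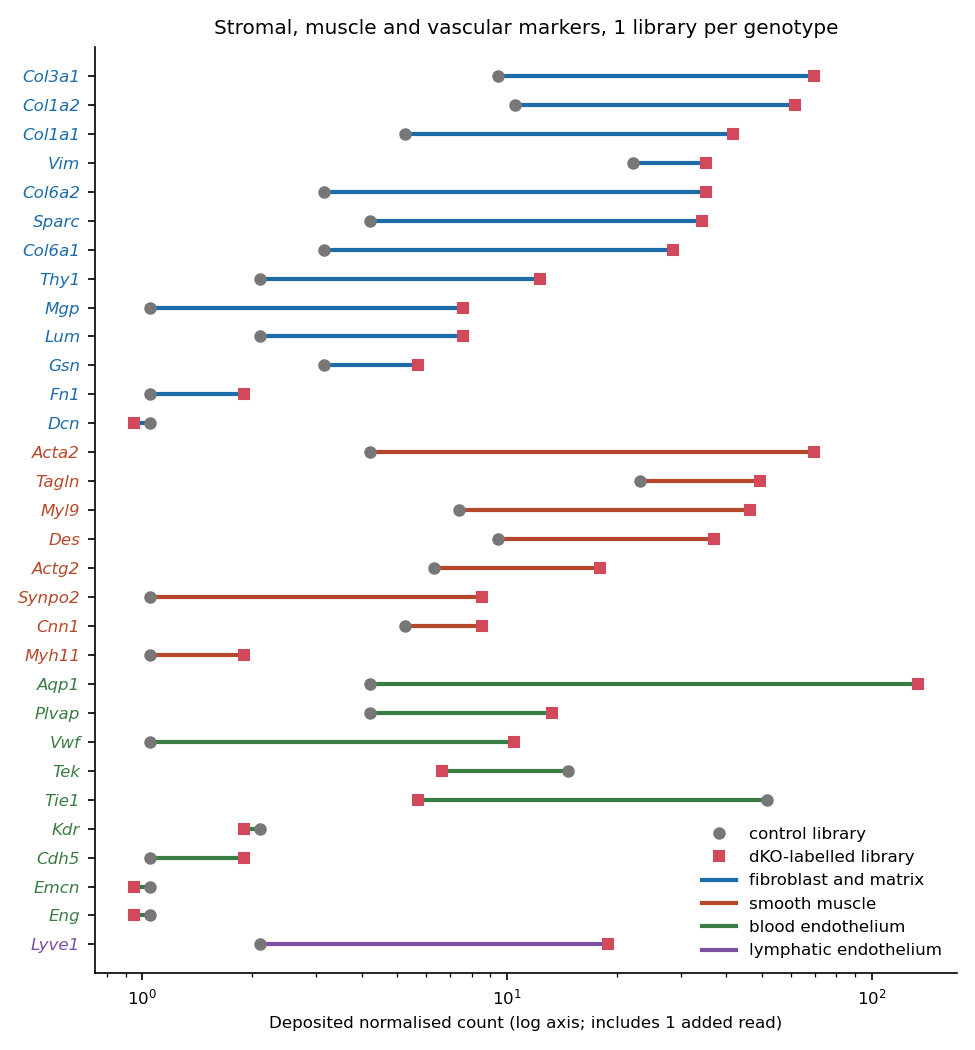
Deposited normalised count of each of the 31 members (log axis, 1 read added by the authors' processing as inferred from the values) in the control library (grey circles) and the dKO-labelled library (red squares), 1 library each. Every fibroblast and smooth muscle member with a read lies further right in the dKO-labelled library, while Tie1 and Tek lie further right in the control.

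The fibrillar collagens, the rope-like proteins of connective tissue, had the most reads of the fibroblast group in the dKO-labelled library. Col3a1, the chain of collagen III, had a normalised count of 9.48 in control villi against 69.3 in the dKO-labelled sample (8 and 72 reads), giving a ratio of 8.11 (3.90 to 19.5). Col1a2, the α2 chain of collagen I, had 10.5 and 61.7 (9 and 64 reads), a ratio of 6.41 (3.17 to 14.7). Its partner chain Col1a1 had 5.27 and 41.8 (4 and 43 reads), a ratio of 9.69 (3.52 to 37.2). The intervals of the 3 genes overlap, so no order among them can be read.

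The beaded-filament collagens that surround cells differed by a similar factor. Col6a1 had 2 and 29 reads, a ratio of 13.1 (3.31 to 113), and Col6a2 had 2 and 36 reads, a ratio of 16.2 (4.18 to 139). All 5 collagen members together had 25 and 244 reads, a ratio of 8.80 (5.82 to 13.9). Sparc, a collagen-binding protein secreted by matrix-producing cells, had 3 and 35 reads, a ratio of 10.5 (3.32 to 53.4).

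The other matrix and surface members were read only a few times. Thy1, a surface glycoprotein of fibroblasts that T cells and neurons also carry, had 1 and 12 reads, a ratio of 10.8 (1.60 to 462). Mgp, an inhibitor of calcification, had 0 and 7 reads, 2.10-fold higher against a floor of 3 control reads. That fold leaves out counting error in the dKO-labelled reads, and the exact interval of Mgp began at 1.30. Lum, a collagen-binding proteoglycan, had 1 and 7 reads (ratio 6.31, interval 0.811 to 284), and its interval includes 1.

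Vim and Gsn stood closer to equal. Vim, the intermediate filament protein of mesenchymal cells, leukocytes and endothelium, had a normalised count of 22.1 in control villi against 35.1 in the dKO-labelled sample (20 and 36 reads), giving a ratio of 1.62 (0.914 to 2.96). Gsn, an actin-severing protein made by fibroblasts and many other cells, had 2 and 5 reads (ratio 2.25, 0.369 to 23.7) in its highest transcript. Vim held 20 of the 52 fibroblast reads of the control, and without it the group had 32 and 311 reads, a ratio of 8.76 (6.08 to 13.0). The interval of Vim lies below those of Col3a1, Col1a1, Col1a2, Col6a1, Col6a2 and Sparc without overlap, so Vim differed less between the libraries than those genes by more than counting error.

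**Figure D2:**
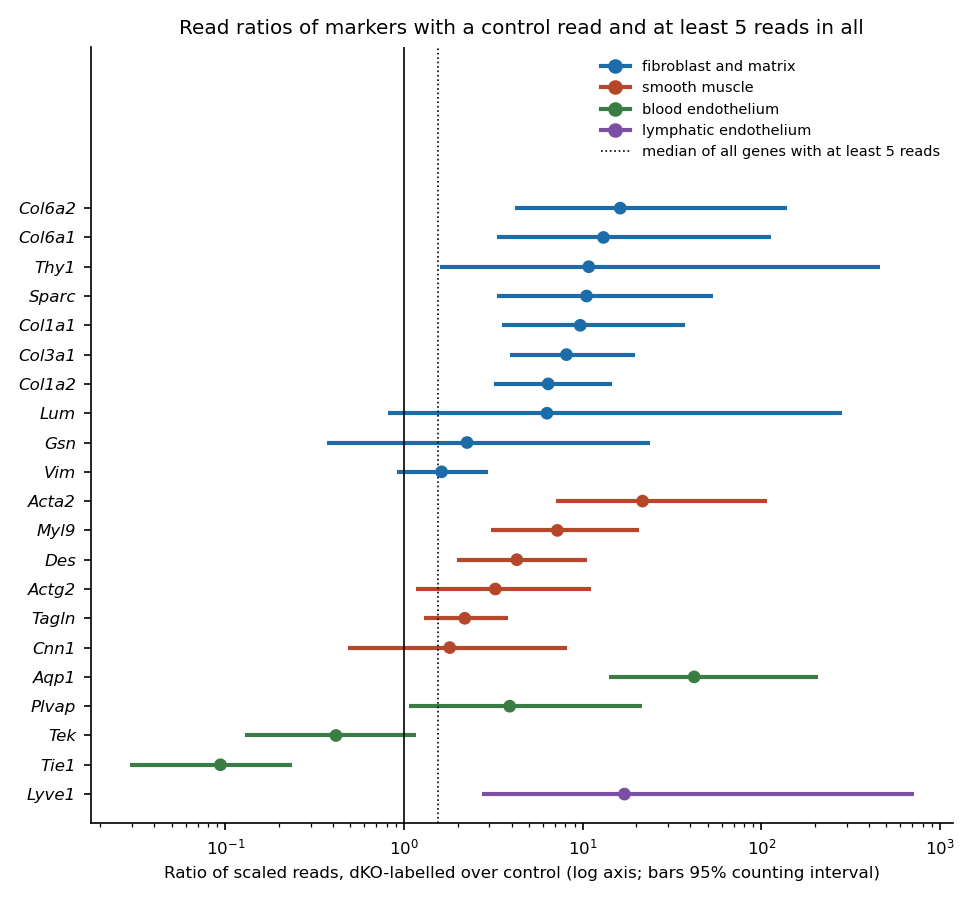
Ratio of scaled reads (dKO-labelled over control, log axis) for the 21 members with a control read and at least 5 reads over both libraries, with 95% counting intervals. The dotted line is the median of all 10456 genes with at least 5 reads (1.55), and the intervals of the 5 collagens, Sparc, Thy1, Acta2, Myl9, Des, Aqp1 and Lyve1 lie to its right, while those of Tie1 and Tek lie to its left.

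Smooth muscle members were also higher as a group, with a wider spread among themselves. Acta2, the smooth muscle actin that myofibroblasts also carry, had a normalised count of 4.21 in control villi against 69.3 in the dKO-labelled sample (3 and 72 reads), giving a ratio of 21.6 (7.11 to 107). Myl9, a regulatory light chain of myosin, had 7.37 and 46.5 (6 and 48 reads), a ratio of 7.21 (3.08 to 20.6). Des, the intermediate filament protein of muscle, had 9.48 and 37.0 (8 and 38 reads), a ratio of 4.28 (1.97 to 10.6). The control was the lower library for each of these genes.

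Tagln, an actin-binding protein of contractile cells, had the most control reads of the group. Its normalised counts were 23.2 and 49.4 (21 and 51 reads), a ratio of 2.19 (1.29 to 3.83), an interval that does not overlap that of Acta2. Actg2, the actin of visceral muscle, had 5 and 18 reads (ratio 3.25, 1.16 to 11.2). With the median of measured genes set to 1, the intervals of Tagln and Actg2 included 1, as did those of Mgp and Plvap.

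Synpo2, an actin-bundling protein of muscle, had 0 and 8 reads, 2.40-fold higher against the floor, with an exact interval that began at 1.54. Cnn1, the calponin of differentiated smooth muscle, had 4 and 8 reads (ratio 1.80, 0.483 to 8.18). Myh11, the smooth muscle myosin heavy chain, had 0 and 1 reads, too few for a ratio.

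Contractile genes are known to share a regulatory element, the CArG box, which serum response factor binds. The promoters of Acta2 and Myl9 are shown because they were the only smooth muscle promoters searched that held this element in either form given below. They were thus picked by their boxes, so the boxes say nothing separate about genes with high ratios. The element was searched on both strands from 250 bases before to 50 bases after annotated starts, in RefSeq sequences of build GRCm38.p6, which is not the mm9 build of the reads and was used for the sequence alone. Capitals mark a CArG box or, in a form added after seeing the data, a CArG box with 1 of its 6 middle letters changed to G or C. The Acta2 window is chr19:34255324-34255623 on the minus strand and the Myl9 window chr2:156775214-156775513 on the plus strand, each running over the start of the gene.
Acta2: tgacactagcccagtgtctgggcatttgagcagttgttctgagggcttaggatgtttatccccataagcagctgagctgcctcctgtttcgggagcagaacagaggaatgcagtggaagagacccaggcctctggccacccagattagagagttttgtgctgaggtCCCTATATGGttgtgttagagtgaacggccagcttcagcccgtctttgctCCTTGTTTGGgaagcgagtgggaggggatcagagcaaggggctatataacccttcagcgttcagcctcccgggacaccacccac
Myl9: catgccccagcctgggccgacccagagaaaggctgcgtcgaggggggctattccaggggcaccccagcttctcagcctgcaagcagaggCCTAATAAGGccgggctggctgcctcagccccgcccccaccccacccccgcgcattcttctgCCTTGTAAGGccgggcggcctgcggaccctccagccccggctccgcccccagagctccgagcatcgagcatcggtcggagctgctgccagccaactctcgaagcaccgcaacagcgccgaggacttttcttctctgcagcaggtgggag
Myl9 held a strict CArG box beginning 161 bases before the start and a changed one at 99 bases. Acta2 held 2 changed boxes, at 84 and 34 bases, and no strict one. Of 5 smooth muscle members with a promoter in the table, 1 held a strict box, against 1.63% of 32851 promoters, and 2 held the changed form, against 8.50%. The changed form was also found in promoters of 3 of 6 blood endothelial members (Eng, Kdr and Tek) and 2 of 7 fibroblast members (Col1a2 and Gsn), against 9.69% of all genes counted in the same way. Of these, Gsn had several promoters in the table. Cnn1, Des and Synpo2 held neither form in this window. Tagln, Myh11 and Actg2 had no promoter to search, so the smooth muscle shares do not cover them. Of 2 further motifs searched on both strands, CCGGAAG, a core recognised by ETS factors of endothelium, was in 0 of the 6 blood endothelial members and in 8.86% of all promoters. TATAAA was in Col3a1, Vim and Synpo2 and in 13.6% of all promoters. Serum response factor itself, Srf, had 153 and 158 reads, a ratio of 0.931 (0.741 to 1.17).

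Blood endothelial members did not share a direction. Aqp1, a water channel of capillary endothelium that some epithelia also carry, had a normalised count of 4.21 in control villi against 134 in the dKO-labelled sample (3 and 140 reads), giving a ratio of 42.1 (14.1 to 206). This was the highest ratio of any member with a control read. Plvap, the protein of the diaphragms that close capillary pores, had 3 and 13 reads, a ratio of 3.91 (1.07 to 21.4). Vwf, the clotting factor stored in endothelium, had 0 and 10 reads, 3.00-fold higher against the floor, with an exact interval that began at 2.02.

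The values of Tie1 and Tek lay the other way. Tie1, an orphan receptor kinase of endothelium, had a normalised count of 51.6 in control villi and 5.70 in the dKO-labelled sample (48 and 5 reads), 10.7-fold lower (4.26 to 34.3). Tek, the receptor Tie2 that binds angiopoietins, had 14.7 and 6.65 (13 and 6 reads), and its 2.40-fold lower value has an interval that includes 1 (0.852 to 7.71). With the other scalings tried, the interval of Tek lay below 1 as well. Tie1 was the member with most reads in the control library, and Aqp1 in the dKO-labelled one.

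Kdr, Cdh5, Eng and Emcn were near 0 in both libraries. Kdr, the main receptor for vascular endothelial growth factor, had 1 and 1 reads, and Cdh5, the cadherin of endothelial junctions had 0 and 1. Eng and Emcn, surface glycoproteins of vessels, had 0 and 0. A count of 0 allows up to 3 reads. Kdr, Eng and Emcn are among the members with several transcript models described below. Without Aqp1 the group had 65 and 36 reads, a ratio of 0.499 (0.323 to 0.761). Without Aqp1 and Tie1 it had 17 and 31 reads, a ratio of 1.64 (0.882 to 3.17) whose interval includes 1.

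**Figure D3:**
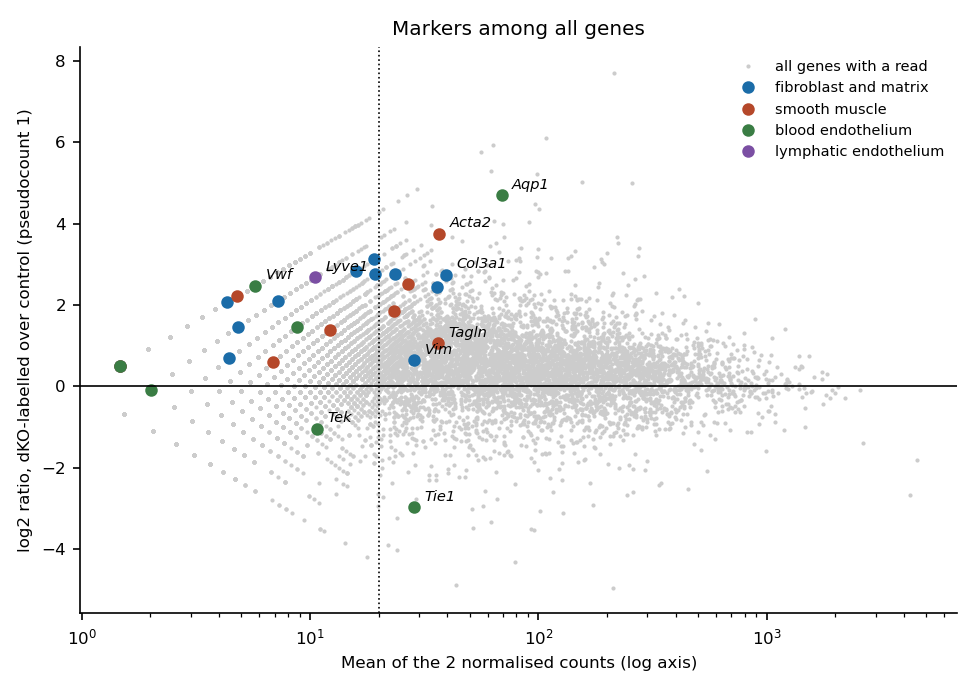
Log2 ratio (dKO-labelled over control, pseudocount 1) against the mean of the 2 normalised counts (log axis) for all genes with a read (grey) and for the 28 members with a read (coloured by cell type). The dotted line is the mean of 20 required of measured genes, and the members lie between -2.97 (Tie1) and 4.69 (Aqp1), mostly above 0 and at means under 100.

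Lyve1, a hyaluronan receptor of lymphatic endothelium that some macrophages also carry, had a normalised count of 2.11 in control villi against 19.0 in the dKO-labelled sample (1 and 19 reads), giving a ratio of 17.1 (2.72 to 712). Among 6 further lymphatic genes with a row, reads numbered 3 and 27, a ratio of 8.11 (2.50 to 41.8). Prox1, the transcription factor that specifies lymphatic fate and is also found in enteroendocrine cells, had 2 and 12 reads, and Pdpn 1 and 7. Flt4, the receptor for the lymphatic growth factor, had 0 and 3. Of the 5 of these genes with a read, only 1 (Prox1) had an interval above 1, against 27.9% of all genes with a read. None had an interval below 1, against 5.85%. The macrophage gene Csf1r had 10 and 23 reads (ratio 2.07, 0.949 to 4.88), and its part in the Lyve1 value was not tested.

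Levels were compared between genes as scaled reads per kb of transcript, with the added read removed and transcript lengths from GENCODE M21. In the control library Tagln (13.9), Tie1 (12.4) and Vim (9.61) had the highest levels and Myl9 (5.60) followed. In the dKO-labelled library the order was Aqp1 (50.6), Myl9 (40.4), Acta2 (33.6) and Tagln (30.4), then Vim (15.6) and Sparc (14.4), while Tie1 was at 1.16. Fibrillar collagen levels in that library were 12.3 for Col3a1, 11.4 for Col1a2 and 6.88 for Col1a1. These 3 levels lay below those of Myl9, Acta2 and Tagln in the same library, and above those of Cnn1 (3.19) and Synpo2 (1.08). The muscle genes Actg2 (12.8) and Des (11.9) were close to Col3a1 and Col1a2. With no replicates, neighbours in either order cannot be separated beyond counting error.

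**Figure D4:**
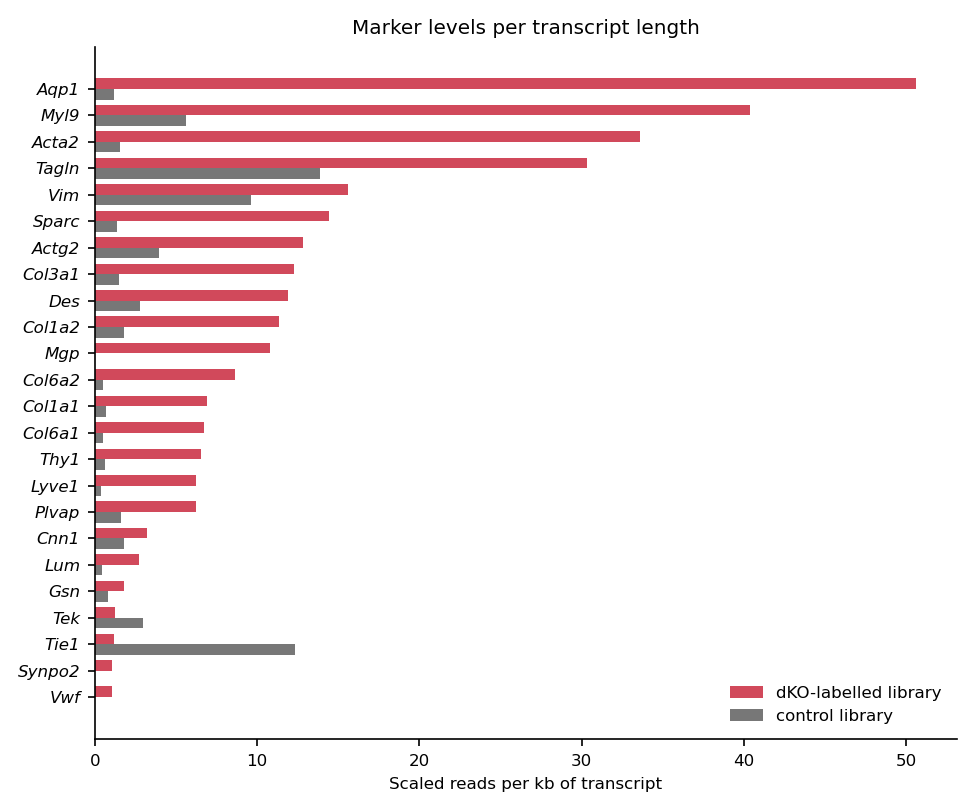
Level of each member with at least 5 reads as scaled reads per kb of transcript (linear axis from 0) in the dKO-labelled (red) and control (grey) libraries, 1 library each. Aqp1 and 3 contractile genes have the longest red bars, and Tie1 is 12.4 in the control against 1.16.

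Low values within the set went with the number of transcript models. Of the 31 members, 21 had 1 curated transcript in the RefSeq table and 10 had several. The first kind had a median of 31 reads over both libraries, and 13 of 21 had at least 20. The second kind had a median of 1.5, and 2 of 10 (Sparc and Col6a2) had at least 20. Dcn, an abundant proteoglycan of fibroblasts, had 0 reads in both of its transcripts and both libraries, and Fn1, Myh11, Kdr, Eng and Emcn had at most 2 reads in all. Over all genes the median was 8 reads with 1 transcript and 6 with several, and 41.5% and 36.3% had at least 20 reads. The source of these low values was not tested, so they are not read as absence of the transcripts. The ratio of summed reads was 4.30 (3.59 to 5.17) for members with 1 transcript and 3.65 (2.24 to 6.20) for the others, and the intervals overlap.

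Other genes of the same cell types were set beside the members. Their lists were drawn up by cell type, but with earlier results of these data known. Over 29 further matrix genes with a row there were 161 and 510 reads, a ratio of 2.86 (2.39 to 3.43). Of the 26 with a read, 12 had an interval above 1, against 27.9% of all genes, and 1 below, against 5.85%. Hspg2, the basement membrane proteoglycan perlecan, had 7 and 65 reads (ratio 8.37, 3.84 to 21.6), Timp2, a metalloproteinase inhibitor, 3 and 30 (9.01, 2.80 to 46.2), and the small proteoglycan gene Bgn 8 and 40 (4.51, 2.08 to 11.1). Fbln1, a matrix glycoprotein, made up 67 and 152 of the reads (2.04, 1.52 to 2.77). Col15a1, a collagen of basement membranes around vessels and muscle, went the other way with 34 and 4 reads, 9.43-fold lower (3.36 to 36.6). Tnc had 11 and 14 reads (1.15, 0.484 to 2.79).

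Genes listed as subepithelial fibroblast signals were read little in the control. The list also holds genes of other fibroblasts, such as Dpt, so it does not single out the subepithelial layer. The 15 with a row had 6 and 59 reads, a ratio of 8.86 (3.84 to 25.1). Of these, 5 were detected in the control against 14 in the dKO-labelled library. Detection was also wider over the whole table, with 12658 of all 22040 transcripts read in the control and 14351 in the deeper dKO-labelled library. The mesenchymal transcription factor Foxf1 had 0 and 9 reads, the matrix gene Dpt 1 and 10, and Bmp4, a differentiation signal to the epithelium, 1 and 8. Pericyte genes had 4 and 18 reads over 7 genes (4.06, 1.34 to 16.5).

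Further contractile genes differed less than the smooth muscle members. Over 18 genes they had 396 and 683 reads, a ratio of 1.55 (1.37 to 1.76). Of the 15 with a read, 4 had an interval above 1, a share close to the 27.9% of all genes. The list includes Srf, whose reads are given above, and without it the reads were 243 and 525, a ratio of 1.95 (1.67 to 2.28), a setting added after seeing the data. Mylk, the myosin light chain kinase that epithelial cells also use, made up 152 and 311 reads (1.84, 1.51 to 2.25). Csrp1 had 34 and 81 (2.15, 1.42 to 3.31), Flna 15 and 38 (2.28, 1.23 to 4.47), Cald1 6 and 28 (4.21, 1.71 to 12.4) and Pdlim7 29 and 38 (1.18, 0.709 to 1.99). The median ratio of its 10 genes with at least 5 reads was 2.22, against 3.25 for the 7 such smooth muscle members and 1.55 for all genes.

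Further blood endothelial genes had 31 and 93 reads over 23 genes, a ratio of 2.70 (1.78 to 4.20), with an interval above 1 for 1 gene, the lectin-like receptor gene Cd93 (9 and 32 reads, ratio 3.20, 1.50 to 7.63). Esam, of endothelial junctions, and Fabp4, of capillary endothelium and adipocytes, had 4 and 12 reads each. None of these 23 genes had an interval below 1 at the deposited size factors. The 18 of them with a read thus had 1 interval above 1, against 27.9% of all genes with a read, and 0 below, against 5.85%.

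Markers of other cell types in the wall of the gut were measured beside the stromal ones. Leukocyte markers had 102 and 195 reads over 10 genes, a ratio of 1.72 (1.35 to 2.21), with Igj, of plasma cells, at 29 and 82, Lyz2 at 48 and 64, and 0 reads of Ptprc. Mesothelial markers had 21 and 55 reads over 5 genes (2.36, 1.40 to 4.11), led by Msln at 10 and 31. Enteric neuron and glia markers had 44 and 31 reads over 9 genes (0.635, 0.388 to 1.03), with Ret at 33 and 17. Of the adipocyte markers Adipoq had 0 and 1 reads and Cfd 0 and 11, while Cidec, which enterocytes also express, had 393 and 442. Kit and Ano1, of interstitial cells of Cajal, had 1 read in all each, and the erythroid gene Alas2 had 0 reads in both libraries. The part of these cell types in the member values was not tested.

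Per 1000 reads of the 10 epithelial markers, fibroblast and matrix reads numbered 5.75 in control villi and 28.9 in the dKO-labelled sample, a 5.03-fold difference that needs no size factor. Smooth muscle reads numbered 5.19 and 20.3, a 3.91-fold difference, and blood endothelial reads 7.51 and 14.7. The epithelial markers differed among themselves, with Krt19 at a ratio of 2.05 (1.83 to 2.29) and Cdh1 at 0.844 (0.775 to 0.920). These folds therefore depend on the epithelial markers chosen. All members together came to 18.6 and 65.4 reads, so stromal, muscle and vascular reads of this set were a minor addition to the epithelial ones in both libraries. As a share of member reads, blood endothelium held 40.5% (control) and 22.4% (dKO-labelled), and fibroblast members 31.0% and 44.1%.

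**Figure D5:**
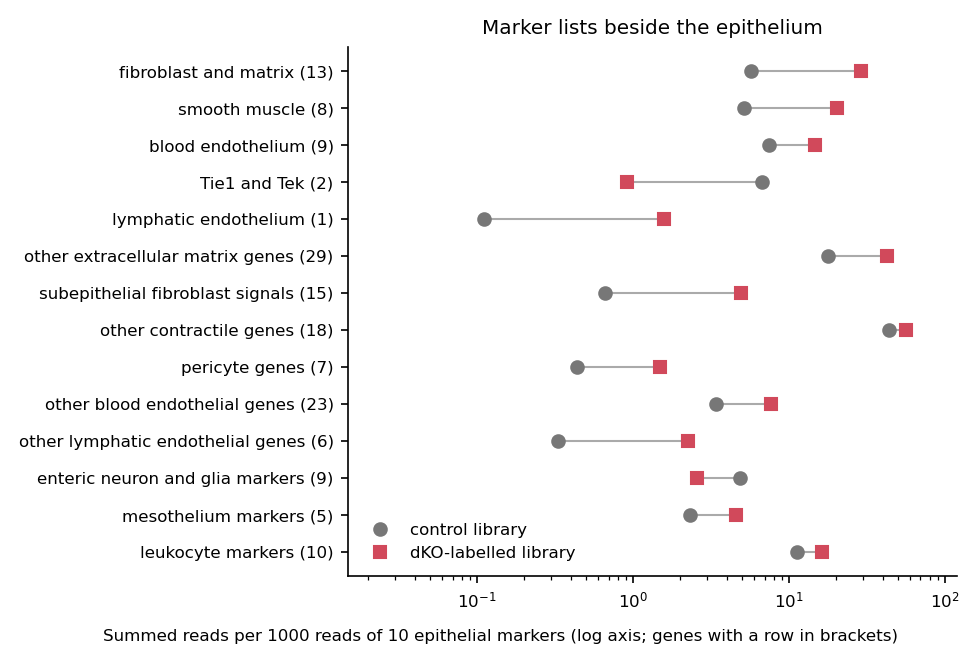
Summed reads of each marker list per 1000 reads of 10 epithelial markers (log axis) in the control (grey circles) and dKO-labelled (red squares) libraries, with the number of genes that had a row in brackets. Among the sets plotted, most lie further right in the dKO-labelled library, and the receptor pair, put together after its values were seen, Tie1 and Tek (6.74 and 0.916), and the enteric neuron and glia list (4.86 and 2.58) lie further left.

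In the authors' deposited table, the unadjusted DESeq p-values of the members were lowest for Aqp1 (0.00328) and Acta2 (0.0181), and no other member was under 0.05. Tie1 followed at 0.0555. These p-values were made with 1 library per genotype and so rest on no measured spread between animals.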

How the data were processed

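Messenger RNA of villi was sequenced from 1 library per genotype, per the labels' protocols with a TruSeq RNA v2 kit. The submitters' processing notes name the mm9 build, the aligner TopHat and DESeq. For versions, read counting, strand and duplicates, the entry is: not given in the sources used here. Per the file headers, the signal columns hold DESeq base means, that is, normalised counts, for 22040 transcripts. All values (100% within 0.001) were whole multiples of the smallest value of their column, and none was 0, so reads were recovered as multiples minus 1, on the inference that 1 read had been added. The deposited fold (ratio) and log2 columns and the unadjusted deposited p-value are the authors' own comparison.

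The members, lists and rules were chosen with earlier results of these data known. The highest-mean row stood for each symbol. Measured genes had a mean normalised count of at least 20, and size was called at 2-fold on log2 values with a pseudocount of 1. A gene at 0 was set to a floor of 3 reads. Intervals are exact at 95%. Named genes were all members, the 3 genes with most reads of each other list, and its 2 highest and 2 lowest ratios among genes with at least 20 reads. Other genes of a list are named after their values were seen (Ptprc among them), and some are not reported here. Gene and promoter tables were RefSeq, of GRCm38.p6, and 31 members had a GENCODE length. Alternatives were other scalings, filters, pseudocounts and left-out members. Functions were tested on simulated data, with the changed genes drawn only from genes with more reads than most members had. That test does not cover the low counts of most members. Tools were Python 3.11.15, pandas 2.3.3, numpy 2.4.6, scipy 1.17.1, matplotlib 3.10.9 and, for TMM scaling of recovered reads, edgeR 4.0.16 in R 4.3.3.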

Additional observations from a re-analysis of the deposited data

How the results depend on the processing

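Each genotype had 1 library, so no replicate could be left out. No paired analysis was possible because the genotypes have 1 library each. Depth limits the single ratios, since 27 of the 31 members had fewer than 10 control reads. Total counts, TMM, the median of measured genes set to 0 and the upper quartile lower every log2 ratio by 0.30, 0.53, 0.51 and 0.64. The summed-read ratio of fibroblast members was then 3.86 (upper quartile), 4.18 (TMM) and 4.23 (median at 0). That of smooth muscle was 3.00, 3.25 and 3.29, or 3.25 as the median of member ratios, and that of blood endothelium 1.50, 1.62 and 1.64. Blood endothelium was reversed to 0.499 without Aqp1, and, in alternatives chosen after seeing the data, was 7.71 without Tie1 and 1.64 without both. The sums of the other groups kept their direction under every alternative run. Fibroblast members without Col3a1 had a ratio of 5.63 (4.09 to 7.93), and smooth muscle members without Acta2 3.52 (2.52 to 5.03). Members at least 2-fold higher and lower numbered 8 and 1 of 10 measured, and 7 and 1 with each other scaling or a pseudocount of 5. With the minimum mean lowered to 10 they numbered 13 and 2 of 16, against 28.9% and 4.38% of all genes at that level, and with no filter 19 and 2 of 31, against 17.9% and 4.30%. Under the other scalings, 13 to 16 of 28 members had an interval above 1, against 11.1% to 19.3% of all genes. The interval lay below 1 for 2 of 28, Tie1 and Tek, against 9.56% to 15.6%. Tagln lost its interval above 1 with the upper quartile, TMM and the median at 0, and Actg2 and Plvap lost it with all 4 other scalings. Mgp lost it with the upper quartile, TMM and the median at 0, and Synpo2 with the upper quartile.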
